A study of Homo sapiens with 9 samples.

Results

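The genes described here are 9 genes of the bone morphogenetic protein (BMP) response: ID1, ID2, ID3 and ID4, the inhibitory SMAD genes SMAD6 and SMAD7, the receptor-activated SMAD gene SMAD9, the ligand gene BMP4 and the pseudoreceptor gene BAMBI. They were found by symbol among the 58721 genes counted in every library, and all 9 passed the filter on low counts that left 16441 genes for testing. The genes were chosen by the levels of ID2 and ID3 in these same libraries, which had been seen to rise with melatonin, so the comparison of melatonin with control is given as a description of the 9 genes: it carries no p-value for them, and the number of them past the threshold is given only beside the share of all genes. RNA was sequenced from H1299, an established human cell line from a non-small cell lung carcinoma. One group of 3 libraries came from cells in serum free medium (control), one of 3 from cells given siCLOCK, a small interfering RNA against the circadian transcription factor gene CLOCK, and one of 3 from cells given 0.1 mM melatonin, the hormone of the pineal gland. The labels give no non-targeting siRNA, no vehicle, no treatment time and no medium for the treated groups. They call the samples independent without saying that these were separate cultures, so a p-value measures only the spread between these libraries. All cells were of a single line, and the title of the series presents both treatments as acting against a disturbed circadian rhythm.

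BMPs are secreted ligands that bring type I and type II receptor kinases together at the cell surface, and the type I kinases phosphorylate SMAD1, SMAD5 and SMAD9 (also called SMAD8). These enter the nucleus with SMAD4 and bind regulatory DNA, and the ID genes are among the best known direct targets. ID proteins have a helix-loop-helix domain but no DNA-binding region. They pair with E proteins such as TCF3 and keep these, and the tissue-specific factors that depend on them, off DNA. SMAD6 and SMAD7 are made in response to the pathway and block it: SMAD6 acts mainly on BMP signals, SMAD7 on both BMP and TGF-beta signals. BAMBI is a membrane protein that resembles a type I receptor without the kinase and is itself raised by BMP signals in many cells. In lung carcinoma lines ID genes are studied as inhibitors of differentiation.

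The promoters of the 4 ID genes and of SMAD6 are shown because the levels of these 5 members were higher in every melatonin library than in all other libraries. Each is the 250 bases before a transcription start in RefSeq on GRCh38.p14, written 5′ to 3′ on the gene's strand. Capitals mark matches on either strand to 7 short motifs: GGCGCC (a GC-rich SMAD motif), GTCTAGAC (a palindromic SMAD motif), CACGTG (the E-box of CLOCK partners and MYC), CAGCTG (an E-box of E proteins), CCAAT (the site of NF-Y), TATAAA (the TATA box) and TGACGTCA (the cyclic AMP response element). The starts of ID1, ID2, ID3 and SMAD6 in RefSeq lie inside the GENCODE genes rather than at their first base, and that of ID4 lies before its gene.
ID1, chr20:31605039-31605288, plus strand: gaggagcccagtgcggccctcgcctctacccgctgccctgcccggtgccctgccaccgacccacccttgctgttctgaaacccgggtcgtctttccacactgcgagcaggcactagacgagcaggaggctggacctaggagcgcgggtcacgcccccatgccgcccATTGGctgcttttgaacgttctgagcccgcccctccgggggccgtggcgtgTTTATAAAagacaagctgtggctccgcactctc
ID2, chr2:8681806-8682055, plus strand: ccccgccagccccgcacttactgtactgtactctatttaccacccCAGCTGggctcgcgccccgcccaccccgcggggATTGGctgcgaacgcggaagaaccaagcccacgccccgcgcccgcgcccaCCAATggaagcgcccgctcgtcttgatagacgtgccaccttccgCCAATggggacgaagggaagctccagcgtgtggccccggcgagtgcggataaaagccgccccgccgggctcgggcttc
ID3, chr1:23559502-23559751, minus strand: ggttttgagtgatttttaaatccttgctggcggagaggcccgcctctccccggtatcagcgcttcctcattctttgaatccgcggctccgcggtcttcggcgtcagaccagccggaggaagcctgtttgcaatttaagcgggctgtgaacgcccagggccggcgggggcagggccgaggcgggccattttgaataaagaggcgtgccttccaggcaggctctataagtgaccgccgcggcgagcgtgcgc
ID4, chr6:19837120-19837369, plus strand: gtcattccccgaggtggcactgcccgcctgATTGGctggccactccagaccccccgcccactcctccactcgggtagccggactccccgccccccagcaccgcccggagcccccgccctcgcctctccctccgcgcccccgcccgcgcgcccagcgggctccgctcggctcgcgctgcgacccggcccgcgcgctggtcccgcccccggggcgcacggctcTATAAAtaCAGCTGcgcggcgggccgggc
SMAD6, chr15:66701986-66702235, plus strand: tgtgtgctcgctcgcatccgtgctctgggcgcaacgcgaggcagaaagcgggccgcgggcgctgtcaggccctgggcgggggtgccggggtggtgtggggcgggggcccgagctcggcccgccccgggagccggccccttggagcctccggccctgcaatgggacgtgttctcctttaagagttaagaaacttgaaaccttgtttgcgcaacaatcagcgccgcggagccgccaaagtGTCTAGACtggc

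Of 35116 RefSeq promoters of this length, the share that held the motif was 32.0% for CCAAT, 16.4% for GGCGCC, 14.0% for CAGCTG, 10.7% for TATAAA, 6.34% for CACGTG, 1.65% for TGACGTCA and 0.182% for GTCTAGAC. ID2 held CCAAT at -172, -122 and -78 from the start, the first of these on the opposite strand, and CAGCTG at -205. ID1 held CCAAT at -84 on the opposite strand and TATAAA at -31, which overlaps a match to the same motif on the opposite strand at -33. ID4 held CCAAT at -220 on the opposite strand, TATAAA at -29 and CAGCTG at -21. In ID3 none of the 7 motifs was found. SMAD6 held the palindrome GTCTAGAC at -12, the motif with the smallest share among all promoters. The other SMAD motif, GGCGCC, was in none of the promoters shown. Among members not shown, it lay in BAMBI at -209, -196 and -181 and in a BMP4 promoter at -232. CACGTG was likewise absent from those shown, and lay in SMAD9 at -178 and in another BMP4 promoter at -83. These matches are descriptions of the letters in the window and were not related to binding, which was not measured.

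The 9 libraries held between 15384539 and 19192962 counts assigned to genes. KRT8, KRT18 and VIM, filament genes of carcinoma cells, were abundant, while the epithelial genes EPCAM and CDH1 stood at no more than 0.476 and 0.126 CPM (counts of a gene per 1e6 counts of the library, scaled between libraries by TMM). Summed markers of leukocytes stayed between 0.168 and 0.472 CPM, of endothelial cells between 2.77 and 5.53 CPM and of fibroblasts between 2.40 and 3.98 CPM. CLOCK was at 51.5%, 78.7% and 93.8% of the control mean in siCLOCK replicates 1, 2 and 3, so the library labelled siCLOCK replicate 3 lacked most of the reduction its label implies. Unmapped reads divided the libraries into a first set of 5, the controls and siCLOCK replicates 1 and 2, at 1.22% to 1.36%, and a second set of 4, made up of all melatonin libraries with that siCLOCK library, at 2.24% to 2.34%. The sets also differed in gene counts: processed pseudogenes took 0.163% to 0.172% of these in the first set and 0.314% to 0.324% in the second. No control was in the second set, so melatonin and the set differ only through that 1 siCLOCK library. In bulk RNA, a change in the number of cells of a kind and a change in RNA per cell cannot be told apart.

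In control cells the 4 ID genes differed widely in level. ID1 (ENSG00000125968.8, chromosome 20, 31605283 to 31606515, plus strand) stood at 118 ± 7.19 CPM per kb of exon (SD, n = 3), followed by ID3 (ENSG00000117318.8, chromosome 1, 23557918 to 23559794, minus strand) at 74.3 ± 8.21 CPM per kb. ID2 (ENSG00000115738.9, chromosome 2, 8678845 to 8684453, plus strand) stood at 12.3 ± 0.387 CPM per kb and ID4 (ENSG00000172201.11, chromosome 6, 19837386 to 19840684, plus strand) at 0.776 ± 0.0248 CPM per kb. The order ID1, ID3, ID2, ID4 held in each of the 3 control libraries, with no overlap between neighbours. The other members were low: SMAD7 (ENSG00000101665.9, chromosome 18, 48919853 to 48952052, minus strand) stood at 2.32 ± 0.228 CPM per kb, SMAD6 (ENSG00000137834.14, chromosome 15, 66702228 to 66782848, plus strand) at 1.97 ± 0.161 CPM per kb and SMAD9 (ENSG00000120693.13, chromosome 13, 36844831 to 36920765, minus strand) at 1.27 ± 0.149 CPM per kb. BMP4 (ENSG00000125378.15, chromosome 14, 53949736 to 53958761, minus strand) and BAMBI (ENSG00000095739.10, chromosome 10, 28677342 to 28682939, plus strand) stood at 0.760 ± 0.270 and 0.574 ± 0.0706 CPM per kb, levels whose ranges over the control libraries overlapped each other and that of BMP4 also that of ID4. SMAD7 lay above SMAD6 within each of the 3 control libraries, at 2.46 against 2.09, 2.44 against 2.03 and 2.05 against 1.78 CPM per kb. Their ranges still overlapped, since the lowest SMAD7 library (2.05 CPM per kb) lay below the highest SMAD6 library (2.09 CPM per kb). Coordinates are those of GENCODE on GRCh38.

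ID2 is the ID protein also known to bind the retinoblastoma protein RB1. Its level was 27.1, 26.5 and 25.5 CPM in control replicates 1 to 3, 29.9, 29.3 and 27.3 CPM in siCLOCK replicates 1 to 3, and 60.7, 64.9 and 67.2 CPM in melatonin replicates 1 to 3. The 3 melatonin libraries were far above all other libraries, and the siCLOCK libraries lay just above the controls with no overlap. Melatonin stood 1.29 (SE 0.07) above control on the log2 scale and 1.16 (SE 0.07) above siCLOCK. The siCLOCK mean of 28.8 ± 1.37 CPM (SD, n = 3) against 26.3 ± 0.830 CPM in control gave a log2 fold change of 0.13 (SE 0.08), which did not pass (adjusted p = 0.720, edgeR quasi-likelihood test with Benjamini-Hochberg adjustment over all 16441 genes). ID2 shares 10 exonic bases with ID2-AS1, a gene on the opposite strand with 42 to 85 reads per library, and the libraries do not mark strand. Counting reads regardless of strand kept 99.6% of the ID2 reads found when each strand was counted separately.

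ID3, a target gene of BMP signals in many cell types, had the largest difference between melatonin and control of the 9 genes, close to that of ID2, whose difference between melatonin and siCLOCK was the larger. It stood at 81.5, 101 and 96.2 CPM in the controls, 131, 111 and 94.8 CPM in siCLOCK and 204, 234 and 250 CPM in melatonin, replicates 1 to 3 in each. All melatonin libraries lay above all others, whereas the siCLOCK libraries ran from within the control range to above it. The log2 fold changes were 1.30 (SE 0.10) for melatonin against control and 1.03 (SE 0.10) for melatonin against siCLOCK. For siCLOCK against control it was 0.27 (SE 0.10, adjusted p = 0.449 in the edgeR test), and leaving out the library labelled siCLOCK replicate 3 made it 0.37 (SE 0.09, adjusted p = 0.0677 in the edgeR test). Leaving out siCLOCK replicate 1 made it 0.14 (SE 0.09, adjusted p = 0.608, edgeR), and leaving out control replicate 1 made it 0.18 (SE 0.11, adjusted p = 0.893, edgeR). Among 10535 protein-coding genes with a mean of at least 5 CPM, ID3 and ID2 ranked 2 and 3 by log2 fold change of melatonin against control, and among all 16441 genes tested they ranked 152 and 159, in the comparison they were chosen from.

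ID1 is the ID gene most often used as a readout of BMP signals. Its libraries stood at 145, 155 and 137 CPM in control, 169, 152 and 138 CPM in siCLOCK and 195, 220 and 235 CPM in melatonin. The melatonin libraries were again above all others, by a smaller factor than for ID2 and ID3: the melatonin mean was 149% of the control mean, against 244% for ID2 and 247% for ID3. The log2 fold change was 0.57 (SE 0.08) against control, rank 82 of the same 10535 genes, and 0.50 (SE 0.08) against siCLOCK. In siCLOCK against control ID1 overlapped, at 0.07 (SE 0.08, adjusted p = 0.896 in the edgeR test).

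ID4, the least abundant ID gene, rested on 33 to 35 reads in control, 38 to 42 in siCLOCK and 57 to 76 in melatonin. In CPM these were 1.75, 1.85 and 1.85 in control, 2.06, 2.26 and 2.20 in siCLOCK and 3.59, 3.93 and 3.78 in melatonin. The 3 groups did not overlap, with melatonin highest and control lowest. Melatonin was 1.05 (SE 0.17) above control and 0.80 (SE 0.16) above siCLOCK on the log2 scale, and siCLOCK was 0.26 (SE 0.18) above control, which did not pass (adjusted p = 0.796, edgeR). AL022068.1, a gene on the opposite strand that overlaps ID4 without shared exon bases, had 87 to 135 reads per library.

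**Figure D1:**
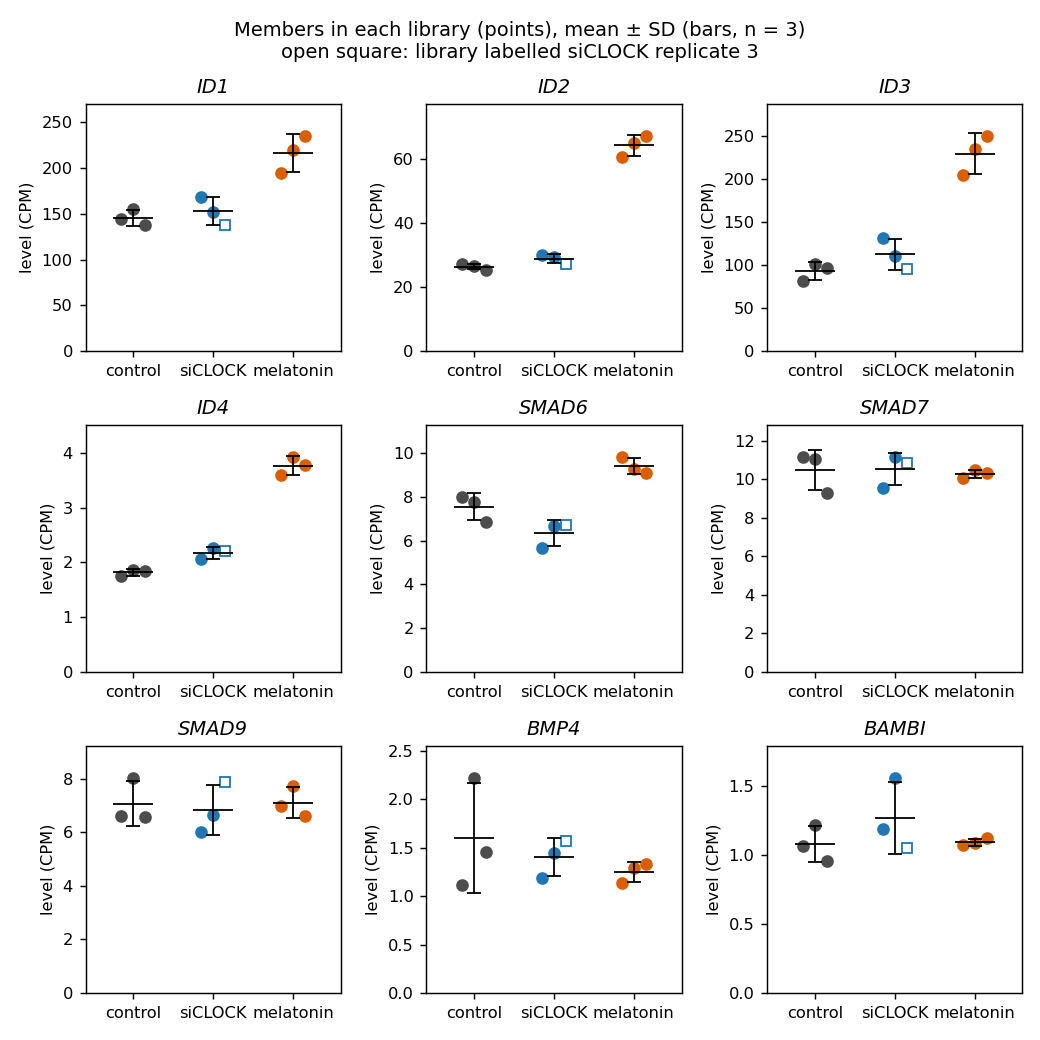
Level of each of the 9 genes in CPM (vertical axes, linear, from 0) in every library, by group; points are libraries, horizontal bars are means and whiskers SDs (n = 3), and the open square is the library labelled siCLOCK replicate 3. ID1 to ID4 and SMAD6 are higher in the 3 melatonin libraries than in all other libraries, while SMAD7, SMAD9, BMP4 and BAMBI overlap between the groups.

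The inhibitory and receptor-activated SMAD genes differed from each other. SMAD6, the inhibitor that acts mainly on BMP signals, stood at 8.01, 7.78 and 6.84 CPM in control, 5.68, 6.66 and 6.72 CPM in siCLOCK and 9.84, 9.30 and 9.11 CPM in melatonin. Its groups did not overlap, with siCLOCK lowest and melatonin highest. Melatonin stood 0.32 (SE 0.11) above control and 0.56 (SE 0.12) above siCLOCK on the log2 scale. The siCLOCK difference of -0.25 (SE 0.12) did not pass (adjusted p = 0.599, edgeR). Against control its melatonin difference was smaller than those of the 4 ID genes, while against siCLOCK it was close to the 0.50 of ID1.

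SMAD7, the inhibitor shared by BMP and TGF-beta signals, stood at 11.1, 11.1 and 9.31 CPM in control, 9.58, 11.2 and 10.9 CPM in siCLOCK and 10.1, 10.5 and 10.3 CPM in melatonin. Control and siCLOCK overlapped almost entirely, and the melatonin libraries lay within the range of both. The log2 fold change was -0.03 (SE 0.11) for melatonin against control and 0.00 (SE 0.11, adjusted p = 0.995, edgeR) for siCLOCK against control. SMAD9, a signal carrier that is itself raised by BMP signals, stood at 6.63, 8.04 and 6.56 CPM in control, 6.005, 6.66 and 7.87 CPM in siCLOCK and 6.999, 7.75 and 6.61 CPM in melatonin. All 3 groups of SMAD9 overlapped, and its log2 fold changes were 0.01 (SE 0.13) for melatonin and -0.05 (SE 0.13, adjusted p = 0.968, edgeR) for siCLOCK.

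BMP4, the only ligand among the members, and BAMBI rested on few reads. BMP4 had 21, 42 and 26 reads in control, 22, 27 and 30 in siCLOCK and 18, 25 and 25 in melatonin. BAMBI had 20, 23 and 17 reads in control, 22, 29 and 20 in siCLOCK and 17, 21 and 21 in melatonin. Both overlapped between all groups, and the spread of BMP4 in control came from replicate 2, at 2.22 CPM against 1.11 and 1.46 CPM in replicates 1 and 3. The log2 fold changes of melatonin against control were -0.35 (SE 0.26) for BMP4 and 0.02 (SE 0.25) for BAMBI. That of BMP4 was -0.03 without control replicate 2, -0.55 without control replicate 1 and -0.60 with a term for the technical sets. Those of siCLOCK against control were -0.19 (SE 0.25, adjusted p = 0.924) and 0.23 (SE 0.24, adjusted p = 0.890) in the edgeR test. With so few reads, a difference of the size seen for SMAD6 was not detectable for either gene, since the SE alone came close to it.

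**Figure D2:**
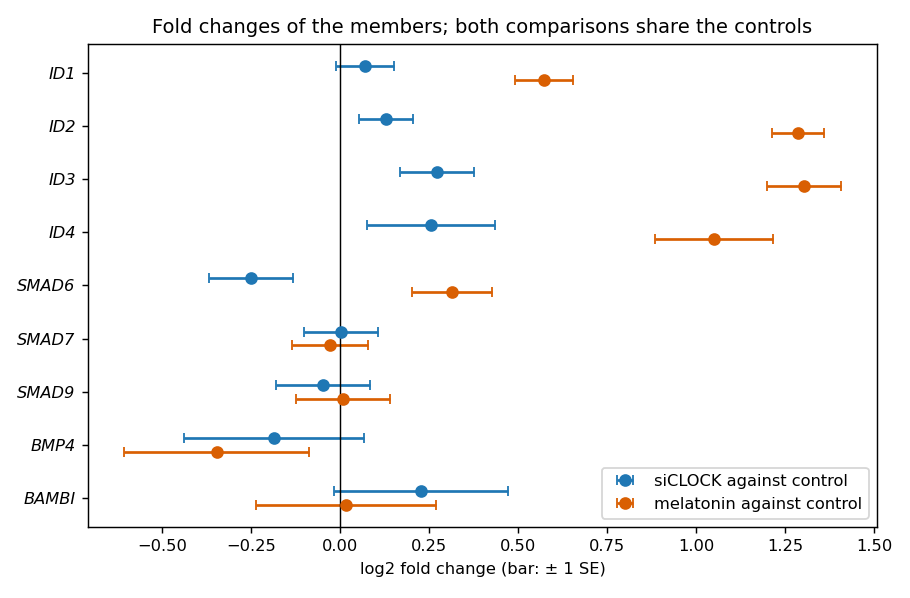
Log2 fold change of each of the 9 genes (horizontal axis) for siCLOCK against control and melatonin against control, which share the control libraries; whiskers are 1 SE. The melatonin values of ID2, ID3 and ID4 lie above 1, ID1 lies at 0.57 and SMAD6 at 0.32, and the siCLOCK values of all 9 genes lie between -0.25 and 0.27.

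Counted together, none of the 9 genes passed in siCLOCK against control, where 0.122% of all genes passed in the edgeR test (0.0547% higher and 0.0669% lower). CLOCK, the target of the siRNA, did not pass there either (log2 fold change -0.42, SE 0.14, adjusted p = 0.340, edgeR). The lack of calls in this comparison therefore does not show a lack of effect. At an unadjusted p under 0.05 there were 2 members (ID3 and SMAD6) and 1355 of all genes, and DESeq2 called 0 of the 3 members to which it gave an adjusted p. Without overlap between libraries, 2 members (ID2 and ID4) were higher, as were 5.75% of all genes, and 1 (SMAD6) was lower, as were 5.06% of all genes, or 10.8% in either direction. In melatonin against control, the comparison that led to the choice of these genes, 5 of 9 (ID1, ID2, ID3, ID4 and SMAD6) were higher past the threshold and none was lower, beside 11% and 12.1% of all genes (23.1% in all). The choice of the genes fixed part of this count, and nothing is read from it. Of these calls, that of SMAD6 was lost in 13 of 16 alternatives and that of ID4 in 1 of 15. Those of ID1, ID2 and ID3 were lost in 0 of 16. The alternatives reuse the libraries in which the rise had been seen, so they are no separate support for it. The same 5 were higher without overlap and none was lower, beside 21.9% and 21.4% of all genes (43.4% in all). In melatonin against siCLOCK, which uses the same melatonin libraries, these 5 were higher past the threshold and none was lower, beside 7.43% and 10.1% of all genes (17.5% in all). They were also the 5 without overlap, beside 16.8% of all genes higher and 17.4% lower in that way (34.2% in all). The median log2 fold change of the 9 genes was 0.07 in siCLOCK against control, 0.32 in melatonin against control and 0.50 in melatonin against siCLOCK, while the medians of all tested genes were 0.00, 0.01 and 0.00.

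The makeup of the ID family also differed between the groups. Summed per kb of exon, ID1 to ID4 came to 206 ± 12.6 CPM per kb in control, 228 ± 27.9 in siCLOCK and 391 ± 36.9 in melatonin (SD, n = 3). ID1 made up 57.5% ± 2.24 of that sum in control, 54.5% ± 1.09 in siCLOCK and 45.0% ± 0.0923 in melatonin, and ID3 made up 36.1% ± 2.57, 39.2% ± 1.60 and 46.9% ± 0.377. ID1 was thus the most abundant family member in every control and siCLOCK library, and ID3 in every melatonin library. ID2 contributed 5.62% to 6.47% in the control libraries and 7.70% ± 0.340 in melatonin, and ID4 less than 0.5% in every library. Within the melatonin group the levels of ID3 (183 ± 18.7 CPM per kb) and ID1 (176 ± 16.6 CPM per kb) overlapped between libraries.

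**Figure D3:**
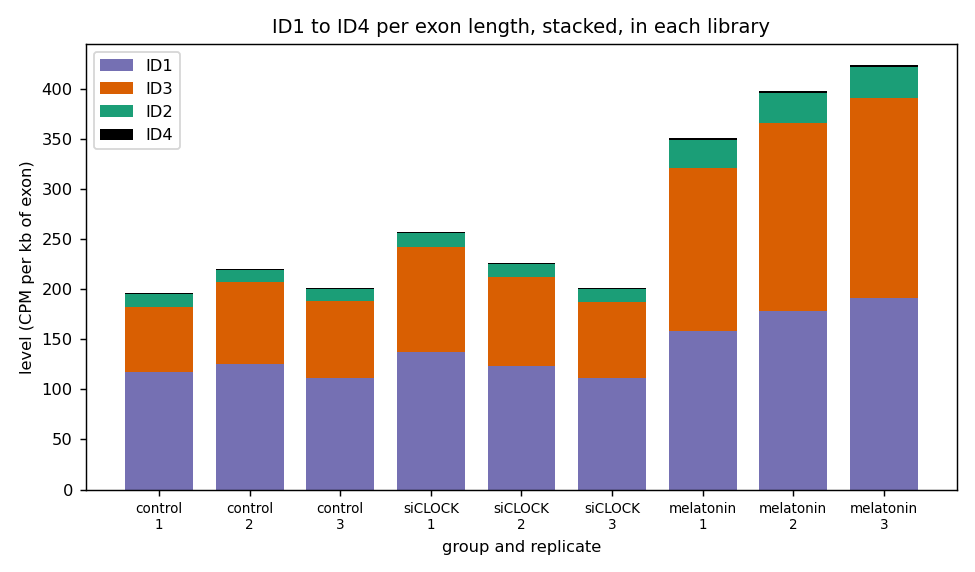
Stacked levels of ID1, ID3, ID2 and ID4 in CPM per kb of exon (vertical axis, linear, from 0) in each of the 9 libraries. The sum is highest in the melatonin libraries, and the ID3 segment is longer than the ID1 segment in those 3 libraries only.

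The second technical set holds all melatonin libraries and the library labelled siCLOCK replicate 3. In that siCLOCK library ID1, ID2, ID3 and ID4 stood at 94.5%, 104%, 102% and 121% of the control mean. In the melatonin libraries the same genes stood at 134% to 161%, 230% to 255%, 219% to 269% and 198% to 216%. With a term for the set in the model, which rests on the contrast of that library with the other pair of siCLOCK libraries, the melatonin values were 0.79 for ID1, 1.40 for ID2, 1.65 for ID3 and 1.02 for ID4 on the log2 scale, and 0.19 for SMAD6. ID4 and SMAD6 were not past the threshold in that fit. The library labelled siCLOCK replicate 3 also differed from that pair in CLOCK, at 93.8% of the control mean against 51.5% and 78.7%. The set term therefore cannot tell the technical set from the amount of CLOCK reduction, here and wherever it is used. In the siCLOCK libraries the percentages of the control mean for replicates 1, 2 and 3 were 116, 104 and 94.5 for ID1, 114, 111 and 104 for ID2, 141, 119 and 102 for ID3 and 113, 124 and 121 for ID4, beside 51.5, 78.7 and 93.8 for CLOCK. In the library with the lowest CLOCK level ID1, ID2 and ID3 were at their highest and ID4 at its lowest of the 3 siCLOCK libraries, a relation that was not tested.

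For ID2 and ID3 the genes with the most similar profiles were sought by the root mean square difference of log2 CPM over the 9 libraries, each gene taken relative to its own control mean, among the 10535 protein-coding genes with at least 5 CPM. ID3 was the closest of all to ID2, at 0.15, and ID2 the closest to ID3. Both had been chosen for a rise with melatonin, which by itself places them near each other, so nothing is read from their closeness. Next to ID2 were the histone gene HIST1H2BD (0.171), OLFM1 (0.182), which encodes the secreted glycoprotein olfactomedin 1, the axonemal dynein gene DNAH1 (0.188) and the nuclear receptor gene NR4A2 (0.220). Next to ID3 were DNAH1 (0.195), the lysosomal sialidase gene NEU1 (0.223), OLFM1 (0.245) and HIST1H2BD (0.268). ID1 was at rank 65 from ID2 and at rank 49 from ID3, at 0.419 and 0.447. The measure rests on 9 libraries in which the melatonin difference dominates, and the libraries share their preparation and depth between genes.

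**Figure D4:**
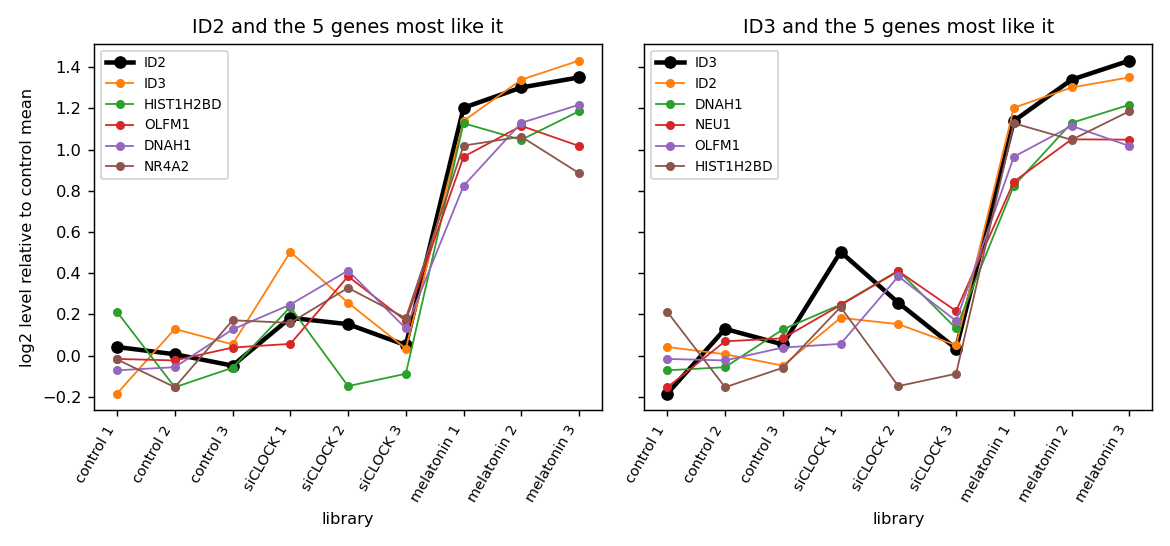
Log2 level relative to each gene's own control mean (vertical axis) in the 9 libraries (horizontal axis), for ID2 (left, heavy line) and ID3 (right, heavy line) with the 5 genes closest to each; lines only join the points of a gene, since replicates have no order. All genes shown lie more than 0.8 above their control mean in the melatonin libraries, with ID2 and ID3 above 1.

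The rest of the pathway was read from 8 lists with 100 genes, of which 75 were tested. In siCLOCK against control none of the 75 passed in the edgeR test, and 15 had an unadjusted p under 0.05 in edgeR, as had 1355 of all 16441 genes. DESeq2 called none of the list genes either, but it gave no adjusted p to several members of low count in this comparison. The number of list genes to which it gave an adjusted p is not given here. In melatonin against control 9 were higher and 18 lower past the threshold, 36% of the tested list genes beside 23.1% of all genes, with a median log2 fold change of -0.04 beside 0.01 for all genes. In melatonin against siCLOCK 7 were higher and 16 lower, 30.7% beside 17.5% of all genes. The lists were chosen with earlier results of these data known, so the shares describe the lists only. Of the 27 list genes past the threshold in melatonin against control, 5 (PMEPA1, RBL1, SKIL, SMAD3 and TGFBI) also passed with a term for the technical set, the remaining 22 did not, and all 27 kept their direction with it. Of the 23 past the threshold in melatonin against siCLOCK, 9 passed with that term, all of them lower, and 14 did not. Across 16 alternatives the call in melatonin against control was lost in 5 for RNF111, 6 for ACVR1, CTGF and TWSG1, 7 for LTBP2, 8 for DLX1, FSTL1 and SKI, 9 for TOB1 and 11 for DLX2, and in at most 3 for the other 17.

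Among 17 ligand genes 8 were tested and none passed in melatonin against control. BMP10, BMP15, GDF2 and GDF3 had no read in any library. The most abundant per kb was BMP6, a ligand known from iron control and cartilage, at 21.9 ± 1.12 CPM in control, 23.3 ± 0.757 in siCLOCK and 18.7 ± 0.665 in melatonin (SD, n = 3). It was lower in melatonin than in siCLOCK (log2 fold change -0.32, SE 0.08, adjusted p = 0.0112, edgeR), while GDF11, a ligand that signals through SMAD2 and SMAD3, was higher by 0.24 (SE 0.07, adjusted p = 0.0332, edgeR). BMP8B was higher by 0.45 (SE 0.15, adjusted p = 0.0452, edgeR), a call lost in 10 of 15 alternatives, with values from 0.26 without siCLOCK replicate 1 to 0.66 without siCLOCK replicate 2. Its near-identical copy BMP8A makes the count of BMP8B uncertain.

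Of 13 receptor and co-receptor genes 10 were tested, and 4 were higher in melatonin than in control while none was lower. Of all genes tested, 11% were higher and 12.1% lower in that comparison. BMPR2, the type II receptor gene of the pathway, stood at 77.2, 76.0 and 79.5 CPM in control, 67.7, 79.8 and 90.4 CPM in siCLOCK and 102, 95.5 and 90.8 CPM in melatonin. Melatonin libraries were above all controls, and the library labelled siCLOCK replicate 3 came close to them. The melatonin difference from control was 0.31 (SE 0.08, adjusted p = 0.0128, edgeR), but 0.01 with a term for the technical set (adjusted p = 0.970, edgeR). ACVR1, a type I receptor gene, was higher by 0.25 (SE 0.08, adjusted p = 0.0208, edgeR). NEO1, a receptor that binds BMP co-receptors, was higher by 0.31 (SE 0.07, adjusted p = 0.00335, edgeR), and TGFBR3, the co-receptor betaglycan, by 0.34 (SE 0.07, adjusted p = 0.00187, edgeR). With that term ACVR1, NEO1 and TGFBR3 stood at 0.22, 0.29 and 0.35 and did not pass (adjusted p = 0.385, 0.202 and 0.102, edgeR). BMPR1A, the type I receptor gene, passed in melatonin against siCLOCK only, at 0.28 (SE 0.09, adjusted p = 0.0321, edgeR), or 0.11 with a term for the technical set (adjusted p = 0.609, edgeR).

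Of the 5 other SMAD carriers, 1 changed. SMAD3, the carrier of TGF-beta and activin signals and the most abundant of the 5 per kb, stood at 327, 317 and 315 CPM in control, 307, 317 and 309 CPM in siCLOCK and 220, 228 and 229 CPM in melatonin. Its melatonin libraries were below all others, including all of siCLOCK. The difference was -0.50 on the log2 scale (SE 0.06, adjusted p = 5.29e-06, edgeR) in melatonin against control, and -0.49 with a term for the technical set. The BMP carriers SMAD1 (9.28 ± 0.806 CPM in control, 9.03 ± 0.732 in melatonin) and SMAD5 (63.5 ± 2.95 and 70.8 ± 6.75 CPM) and the shared partner SMAD4 (37.9 ± 3.32 and 40.3 ± 1.96 CPM) did not pass.

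Of 16 extracellular antagonists and modulators 7 were tested, and 1 rose and 2 fell in melatonin against control. TWSG1, a BMP-binding protein with both blocking and helping roles, was higher by 0.24 (SE 0.08, adjusted p = 0.0374, edgeR), but by 0.05 with a term for the technical set (adjusted p = 0.881, edgeR). NBL1, a secreted antagonist of the DAN family, fell by 0.34 (SE 0.07, adjusted p = 0.00225, edgeR), and FSTL1, a follistatin-like protein, fell by 0.30 (SE 0.11, adjusted p = 0.0491, edgeR). NOG, the antagonist noggin, was at 6.996 ± 0.245 CPM in control, 9.01 ± 1.75 in siCLOCK and 6.69 ± 0.735 in melatonin, and passed in melatonin against siCLOCK only (-0.43, SE 0.14, adjusted p = 0.0337, edgeR). Without siCLOCK replicate 2 the NOG difference was -0.28 (adjusted p = 0.182, edgeR).

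Among 16 intracellular regulators 15 were tested, and 3 rose and 3 fell in melatonin against control. RNF111, a ubiquitin ligase that removes SMAD7 and SKI proteins, was higher by 0.28 (SE 0.07, adjusted p = 0.0107, edgeR), or by 0.18 with a term for the technical set (adjusted p = 0.481, edgeR). The SMAD corepressor SKI was higher by 0.25 (adjusted p = 0.0300, edgeR) and TOB1, an antiproliferative protein that binds BMP SMADs, by 0.21 (adjusted p = 0.0275, edgeR). SKIL, the relative of SKI that TGF-beta raises, fell by 0.38 (adjusted p = 0.00751, edgeR), or by 0.67 with a term for the technical set, FKBP1A, which keeps type I receptors silent, by 0.23 (adjusted p = 0.0136, edgeR) and SMURF2, a ubiquitin ligase of SMADs and receptors, by 0.22 (adjusted p = 0.0175, edgeR). Its relative SMURF1 passed only in melatonin against siCLOCK, at -0.29 (SE 0.06, adjusted p = 0.00282, edgeR).

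Of 16 other BMP-responsive genes 13 were tested, and in melatonin against control none was higher past the threshold and 4 were lower. MSX1, a homeobox gene, was at 5.15, 5.66 and 4.82 CPM in control, 4.81, 3.65 and 3.67 CPM in siCLOCK and 2.71, 3.77 and 3.04 CPM in melatonin. Its melatonin libraries lay below the controls, with siCLOCK between and overlapping melatonin, and the melatonin difference was -0.71 (SE 0.16, adjusted p = 0.00419, edgeR). HES1, a repressor raised by NOTCH and by BMP signals, fell by 0.37 (SE 0.08, adjusted p = 0.00362, edgeR). The homeobox genes DLX1 and DLX2 fell by 0.32 and 0.29 (adjusted p = 0.0336 and 0.0455, edgeR), and DLX1 stood at -0.05 with a term for the technical set (adjusted p = 0.930, edgeR). GATA2, the next most abundant of the list per kb of exon, stood at 17.3 ± 0.366 CPM in control and 18.3 ± 2.33 in melatonin.

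Of 11 partners of ID proteins all were tested, none was higher and 4 were lower in melatonin than in control. TCF3, which encodes one of the E proteins that ID proteins bind, stood at 156, 151 and 132 CPM in control, 145, 141 and 134 CPM in siCLOCK and 101, 108 and 107 CPM in melatonin. All melatonin libraries were below all others, and the log2 fold change was -0.47 (SE 0.07, adjusted p = 8.81e-05, edgeR), or -0.38 with a term for the technical set (adjusted p = 0.0654, edgeR). The other E protein genes TCF4 (43.4 ± 5.18 CPM in control, 39.8 ± 0.837 in melatonin) and TCF12 (122 ± 6.16 and 121 ± 3.24 CPM) did not pass. ETS1, an ETS-domain factor, fell by 0.55 (SE 0.09, adjusted p = 0.000193, edgeR), CAV1, a membrane scaffold protein reported to bind ID1, by 0.48 (SE 0.09, adjusted p = 0.000607, edgeR) and RBL1, the retinoblastoma relative p107, by 0.39 (SE 0.09, adjusted p = 0.00420, edgeR).

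Genes of the TGF-beta branch were mostly lower. Of 8 tested, 5 fell and 1 rose in melatonin against control, with a median log2 fold change of -0.29. TGFBI, a matrix protein named for its induction by TGF-beta, stood at 37.5, 30.1 and 21.7 CPM in control, 23.2, 26.1 and 23.9 CPM in siCLOCK and 12.7, 13.5 and 12.3 CPM in melatonin. The melatonin libraries were below all others by a wide margin despite the spread of the controls, at -1.21 (SE 0.14, adjusted p = 6.91e-06, edgeR). PMEPA1, a feedback inhibitor of TGF-beta SMADs, fell by 0.61 (SE 0.08, adjusted p = 1.55e-05, edgeR) and LTBP2, a matrix protein of the latent TGF-beta binding family, by 0.20 (SE 0.07, adjusted p = 0.0416, edgeR). SKIL, given above, is also among the genes that fell. CTGF, a matricellular protein, was higher by 0.47 (SE 0.14, adjusted p = 0.0242, edgeR), with siCLOCK replicate 1 at 73.3 CPM above all melatonin libraries.

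**Figure D5:**
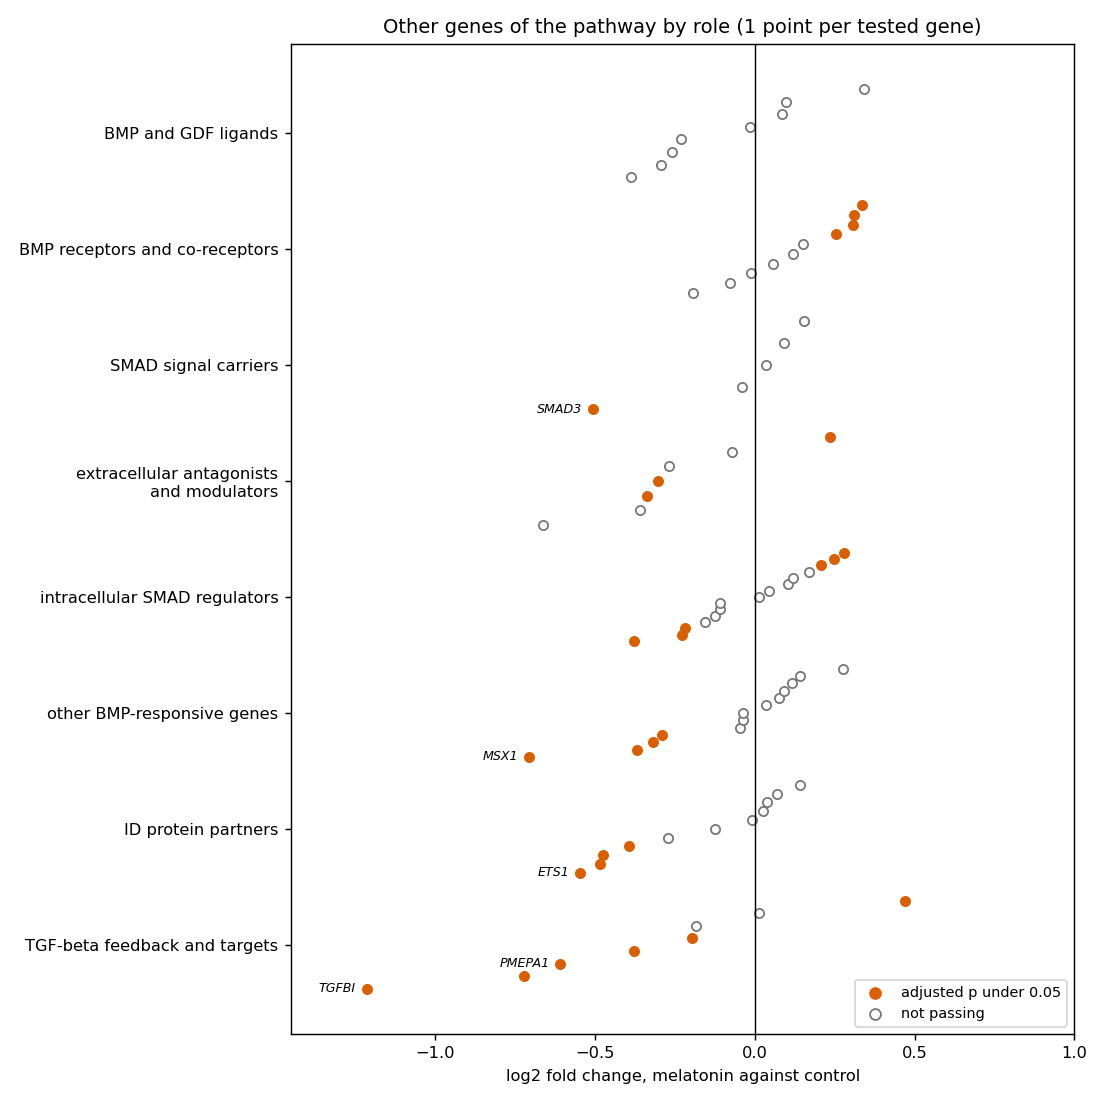
Log2 fold change of melatonin against control (horizontal axis) for the 75 tested genes of the 8 lists, 1 point per gene and list (SKIL and TGIF1 appear in a pair of lists), sorted within each list; filled points passed at an adjusted p under 0.05 in the edgeR test. Receptors with filled points all lie above 0, while filled points among other BMP-responsive genes, ID protein partners and SMAD carriers all lie below 0.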

How the data were processed

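RNA from 9 H1299 libraries, 3 per group by the labels' titles, was measured as deposited raw counts per gene, which the authors made with STAR 2.7.9a on GRCh38 (hg38), per the submitters' processing notes; the annotation release is not given in the sources used here. All 58721 identifiers matched GENCODE 29, which gave symbols, coordinates and exon lengths. Counts regardless of strand were used, since the totals of the strand columns differed by a ratio of only 1.01 to 1.05. Rows that name no gene took 20.3% to 21.8% of reads and were left out. Promoter sequences came from RefSeq.

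With R 4.3.3 and edgeR 4.0.16, filterByExpr kept 16441 genes, TMM set the scale of each library, and the 9 libraries entered 1 quasi-likelihood fit whose only factor was the group (biological coefficient of variation 0.0682). Two-sided F tests were adjusted by Benjamini-Hochberg over all genes tested, with a threshold of 0.05. The SE is the size of the log2 fold change divided by the square root of F. The procedure was tested on simulated data.

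The members, the lists and the alternatives were chosen with earlier results of these data known. Named are every member, list genes past the threshold in any comparison, the most abundant list genes otherwise, and the 5 genes most like ID2 and ID3; 1 list gene is counted but not reported here. Alternatives were DESeq2 1.42.0, scaling by RLE or by the upper quartile, testing without a filter or with one of 5 CPM in 3 libraries, a fit of the 6 libraries of a comparison, the replicate number as a block, a term for the technical sets divided at 1.8% unmapped reads, counts on 1 strand and leaving out each library.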

Additional observations from a re-analysis of the deposited data

How the results depend on the processing

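When each library was left out in turn, the log2 fold changes of melatonin against control were 0.50 to 0.64 for ID1, 1.25 to 1.32 for ID2 and 1.22 to 1.37 for ID3, genes chosen with this rise known. Over all members, comparisons and alternatives, 352 values kept direction and call, 17 lost the call, 1 gained it and 29 changed sign. Of the 17, SMAD6 gave 13 in melatonin against control and 2 in melatonin against siCLOCK, and ID4 gave 1 in each. Of the list genes' values 620 kept direction and call and 156 lost the call. With no filter, 1 member, ID3, passed in siCLOCK against control (0.27, edgeR adjusted p = 0.0462). DESeq2 gave no adjusted p for BMP4, BAMBI, ID4, SMAD6, SMAD7 and SMAD9 in that comparison, and the filter of 5 CPM left ID4, BMP4 and BAMBI untested.

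With a term for the technical sets, 3 members were higher in melatonin against control and 3 in melatonin against siCLOCK, without ID4 and SMAD6. As the members were chosen with the rise known, these counts are descriptions. Of all 16441 genes, 283 were then higher and 487 lower in melatonin against control, and 328 higher and 633 lower in melatonin against siCLOCK. Of the list genes 0 were then higher and 5 lower in melatonin against control, and 0 higher and 9 lower in melatonin against siCLOCK. In siCLOCK against control 1 list gene, SKIL, was then lower (-0.40, adjusted p = 0.0430, edgeR). In melatonin against siCLOCK 3 list genes were higher with counts on 1 strand and 3 with only the 6 libraries compared, beside 7.

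Over all genes, siCLOCK against control gave 20 calls and 2 to 211 under the alternatives (211 with no filter, 116 with the set term, 107 and 103 without siCLOCK replicates 1 and 3, 71 with DESeq2). Melatonin against control gave 3790, from 770 with the set term to 5312 with only the 6 libraries compared, and melatonin against siCLOCK 2876, from 961 with the set term to 3858 without siCLOCK replicate 3.

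Leaving out 1 library gave 0 to 1 list genes higher (LTBP2, without siCLOCK replicate 1) and 0 to 1 lower (SKIL, without siCLOCK replicate 3) in siCLOCK against control. In melatonin against control 2 to 9 list genes were higher: leaving out control replicate 1 gave 4 and control replicate 2 gave 2, and melatonin replicates 1, 2 and 3 in turn gave 5, 3 and 5. In melatonin against siCLOCK 1 to 7 were higher: 1, 2 and 3 without melatonin replicates 1, 2 and 3, and 3 and 4 without siCLOCK replicates 1 and 2.

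Some values without a call changed sign. In siCLOCK against control SMAD7 was -0.00860 with upper-quartile scaling, -0.000777 with no filter, -0.00389 with the filter of 5 CPM, -0.0195 with the set term and -0.0219 with 1 strand, and BAMBI was -0.18 with 1 strand. In melatonin against control SMAD9 was -0.0112 with no filter and -0.30 with the set term, and BAMBI -0.00134 with no filter and -0.51 with 1 strand. In melatonin against siCLOCK the set term gave -0.14 for SMAD9 and 0.0581 for BAMBI. Leaving out 1 library gave, in siCLOCK against control, -0.00733 to 0.135 for ID1, -0.0745 to 0.0667 for SMAD7, -0.167 to 0.0540 for SMAD9 and -0.393 to 0.132 for BMP4. In melatonin against control it gave -0.107 to 0.0148 for SMAD7, -0.0656 to 0.110 for SMAD9 and -0.0607 to 0.114 for BAMBI, and in melatonin against siCLOCK -0.0958 to 0.0114 for SMAD7 and -0.0292 to 0.169 for SMAD9. The cause of these changes was not tested.

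The replicate numbers did not pair the libraries: the correlation of same-numbered libraries' deviations lay between -0.0923 and 0.0629 in 9 pairs, and 1 library correlated best with its own number. With the number as a replicate block, 4 members were higher in melatonin against control, SMAD6 no longer passing, and 5 in melatonin against siCLOCK, with 9 and 5 list genes higher and 17 and 16 lower. Of all 16441 genes, 1658 and 1162 were higher and 1875 and 1550 lower in these comparisons with the block. Depth limits BMP4, BAMBI and ID4, with at most 76 reads in a library.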
